A study of Mus musculus with 16 samples.

Results

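The genes described here encode the proteins of the cytosolic ribosome, among them Rpl22, the protein that carries the affinity tag in this experiment. They were chosen by name from the 24033 usable gene labels of the 16 tables. Names of Rpl or Rps followed by a number were taken, with an optional a, x, y, l or l1, together with Rplp0, Rplp1, Rplp2 and Rpsa. This gave 84 genes, 52 of the large and 32 of the small subunit, of which 8 carry the ending l or l1 of a paralog. Pseudogene names and the S6 kinases were left out, as were Rps3a1 and Rps27rt, whose names fall outside the pattern. In all, 20 similar names were left out.

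The study sequenced RNA from whole striata and whole hippocampi of 4 mice, male and female, at postnatal day 63. From each region, ribosome-bound RNA was precipitated with the HA (hemagglutinin) tag (IP), and the cleared lysate served as the control (input). The 4 groups were therefore striatum IP, hippocampus IP, striatum input and hippocampus input, each with 1 library from each of the animals 970, 971, 974 and 977. All groups carried the same alleles, Aldh1l1-creERT2 (hemizygous) and Ribotag (heterozygous), on an FVB background crossed to C57/Bl6N for 3 generations. The Aldh1l1 promoter drives a Cre that tamoxifen activates, and Aldh1l1 marks astrocytes. The heterozygous mice keep an Rpl22 allele without the tag cassette, the input comes from all cells of the tissue, and the labels do not tie a sex to an animal number. Whether the cage or litter was shared is not given either, so p-values do not reach beyond these 4 animals. They rest on a spread for each gene pooled over the libraries of all 4 groups, with libraries of the same animal treated as independent. A wide spread in 1 group thus enters the tests of the others.

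A cytosolic ribosome joins a large and a small subunit, each a core of ribosomal RNA coated with proteins that are present mostly in a single copy. Mammalian ribosomal protein mRNAs begin with a 5′ terminal oligopyrimidine (TOP) tract, a C followed by a run of pyrimidines, through which the mTOR pathway and the protein LARP1 regulate how many of them sit on ribosomes. In brain, astrocyte processes hold ribosomes far from the cell body, and the RiboTag method reads the mRNAs bound to ribosomes of 1 cell type. In that method Cre exchanges the last exon of Rpl22 for a copy that ends in the HA tag.

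Before the results, several facts of the libraries bear on them. Estimated depth was 13.97 M to 21.8 M fragments in striatum IP, 18.9 M to 22.6 M in hippocampus IP, 4.15 M to 8.98 M in striatum input and 9.05 M to 12.3 M in hippocampus input. The 7 astrocyte markers were higher in IP in both regions, by a median log2 of 3.85 in striatum and 4.21 in hippocampus. The summed level of the 7 neuron markers was 61.5 to 111 scaled FPKM (fragments per kilobase of gene length, normalised for depth and divided by a factor for each library) in striatum IP, against 1408 to 2121 in striatum input. It was 96.4 to 167 in hippocampus IP, against 3083 to 3275 in hippocampus input. Of the 7 neuron markers, 6 were called lower in striatum IP and 7 in hippocampus IP. All tested markers of oligodendrocytes (5), microglia (5) and endothelium (3) were called lower in IP in both regions, and all 5 oligodendrocyte markers reached 1 scaled FPKM in at least 1 IP library of each region. The part of other cell types in the results was not tested. The striatum inputs of animals 971 and 974 stood apart from those of 970 and 977. In them, ribosomal protein genes of high GC content were low, with a Pearson correlation across 81 genes between GC content and deviation from the gene's mean of -0.56 in 971 and -0.54 in 974, against 0.19 in 977 and -0.09 in 970. Over 12784 other genes the same correlation was -0.25 in 971 and -0.35 in 974, against 0.03 in 977 and -0.05 in 970. The 974 library was the shallowest, at 4.15 M. The main results that rest on striatum input are given with and without these 2 libraries. Shares of all genes called are given only for the main fit, with all libraries and no correction or block. Counts under other settings stand without such a share, so a change in them is not shown to be particular to these genes. A correction of each library for GC content, fitted on other genes and chosen after seeing the data, left the median of striatum IP over input at log2 -0.41, against -0.36 uncorrected and -0.60 without the 2 libraries.

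**Figure D1:**
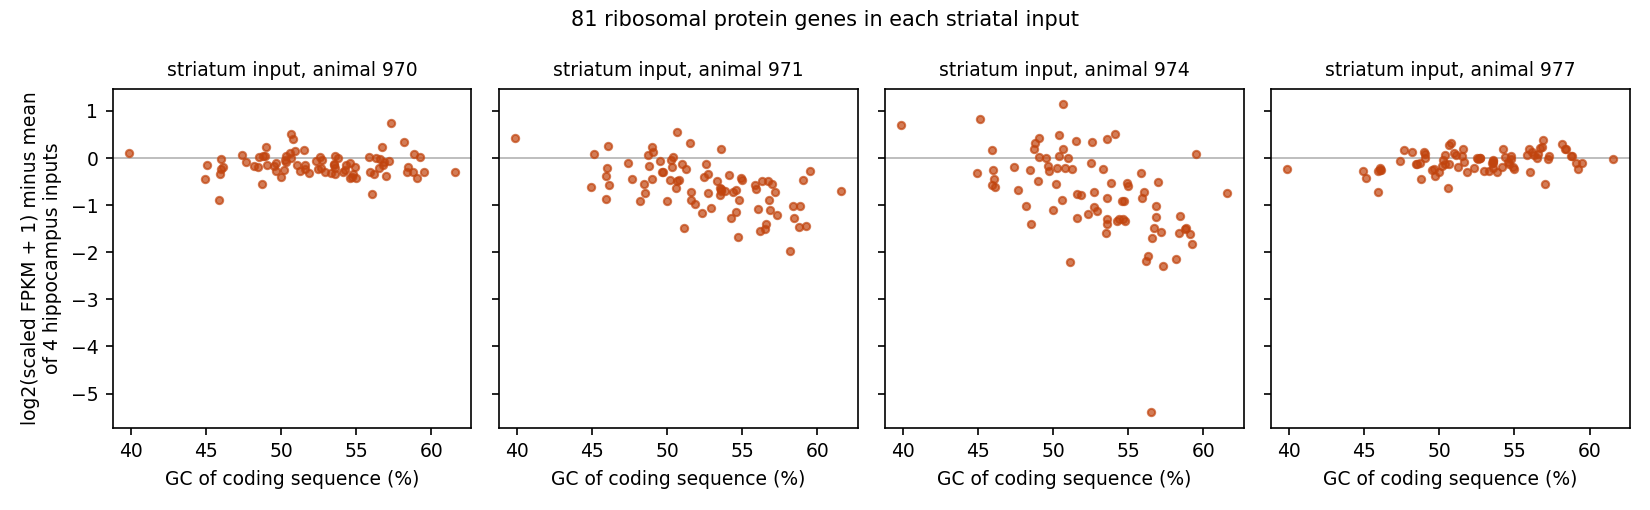
Each panel plots 1 striatum input library. Each point is 1 of 81 ribosomal protein genes. The x axis gives the GC content of its coding sequence in percent, or of its transcript for Rps4l, which has no coding sequence. The y axis gives log2(scaled FPKM + 1) minus the mean of the 4 hippocampus inputs. The points slope down to the right in animals 971 and 974 and lie near 0 in 970 and 977, and the lowest point of 974 is Rps14, listed at 0.

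The genes share features that the naming rule did not use. Their coding sequences were short, with a median of 453 bases and a range of 75 to 1257, against a median of 1401 bases over 11821 other tested genes. Their median GC content of 52.7% was near the 52.5% of 12784 other genes. GC content is that of the coding sequence, or of the transcript for genes without one, such as Rps4l. Many had near-identical copies elsewhere. In 45 of the 83 with a coding sequence, at least 90% of all 50-base windows also occurred in a transcript of another gene, so how reads were divided among copies is uncertain for them. Rpl17 and Rps12, named below for their falls, are among the 45, with 100% each. Promoter windows from RefSeq (GRCm38.p6, 250 bases before to 50 after the annotated start) were matched for 63 of the 84. A C followed by 4 pyrimidines stood at the annotated start in 12 of 63 (19.1%), against 2.51% of all 32851 promoters. A run of at least 8 pyrimidines lay within 15 bases of the start in 25 of 63 (39.7%), against 12% of all. On either strand of the 300 bases, CCGGAAG, a core of ETS-family sites, was in 38.1% against 8.86%, GGGCGG, a core of Sp1 sites, in 60.3% against 35.7%, CACGTG in 7.94% against 7.15% and TATAAA in 1.59% against 3.504%. None of these motifs is contained in another, and a match is a description and not a bound site. The windows below are printed for the tagged gene and its paralog, for 3 genes with large falls in hippocampus IP and for 3 that lay higher in IP there. They start 15 bases before the annotated start, which is the base in position 16, run in the direction of transcription, and the capitals mark the longest pyrimidine run inside the window.
Rpl22 (chr4:152325711-152325740, plus strand): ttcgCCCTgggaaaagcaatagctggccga
Rpl22l1 (chr3:28805493-28805522, plus strand): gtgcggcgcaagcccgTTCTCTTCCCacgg
Rps12 (chr10:23787195-23787224, minus strand): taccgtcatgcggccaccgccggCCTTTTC
Rps15a (chr7:118116133-118116162, minus strand): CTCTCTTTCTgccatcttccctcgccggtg
Rps28 (chr17:33824548-33824577, minus strand): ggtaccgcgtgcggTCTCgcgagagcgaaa
Rpl7l1 (chr17:46782642-46782671, minus strand): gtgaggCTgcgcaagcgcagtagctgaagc
Rpl18 (chr7:45718056-45718085, plus strand): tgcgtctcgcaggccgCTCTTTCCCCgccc
Rps9 (chr7:3704026-3704055, plus strand): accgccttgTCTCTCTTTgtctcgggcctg
By the longest pyrimidine run on either side of the start, the windows do not sort by the IP result. Rps15a, which fell, and Rpl18, which was higher in all 4 IP libraries of each region, both hold a run of 10 pyrimidines. The run of Rps15a lies before the annotated start, and that of Rpl18 begins just after it. At the start itself Rps15a has a C followed by 4 pyrimidines, which the capitals do not mark. Rps28, which fell, and Rpl7l1, which rose, hold runs of 4 and 2. Among the tested genes with a promoter, the median log2 fold change of hippocampus IP over input was -0.64 in 25 with a run of at least 8 and -0.66 in 35 with a shorter run. Runs before and after the start are counted together, so this split does not sort TOP tracts from other promoters. The windows follow the annotated start, which need not be the start used in brain. In the windows printed above, that start lay between 0 (Rps28) and 2614 bases (Rpl18) from the first base of the gene in GENCODE.

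Together, the 84 genes held a smaller share of all FPKM in IP than in input. In hippocampus IP the share was 1.17, 1.25, 1.42 and 1.41% in animals 970, 971, 974 and 977, against 2.93, 2.86, 2.97 and 3.15% in hippocampus input. The groups did not overlap, and their means were 1.31 ± 0.12% in IP and 2.98 ± 0.12% in input (SD, n = 4 each). In striatum IP the share was 1.18, 1.28, 1.52 and 1.46%, against 2.90, 1.96, 1.91 and 3.14% in striatum input. Here too the groups did not overlap, but the 2 inputs that stand apart lay below the other 2. In bulk tissue, fewer cells of a type and less RNA per cell cannot be told apart, and a share also depends on what else is in the library.

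**Figure D2:**
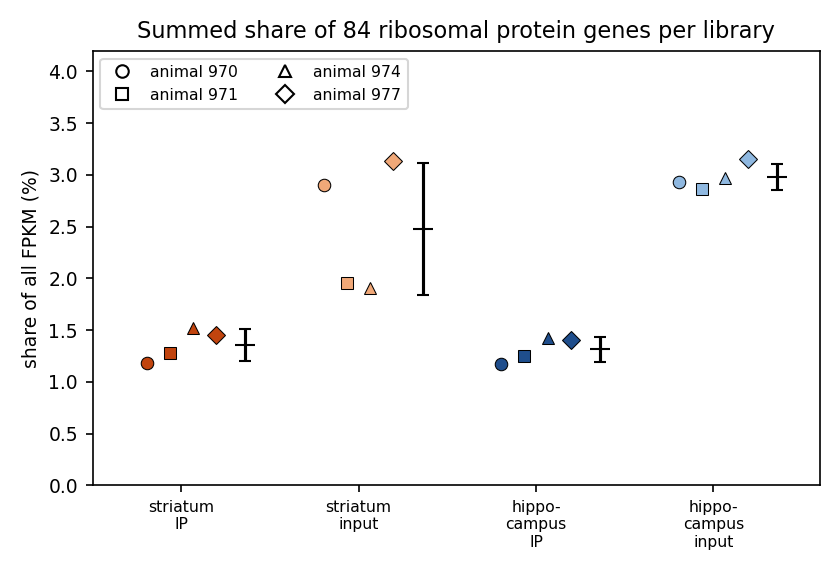
Points are the summed share of the 84 ribosomal protein genes in all FPKM of a library, in percent, by group and animal. The bars beside them give mean and SD over 4 animals. All IP libraries lie at or below 1.52% and all inputs at or above 1.91%.

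The genes differed widely in level although the ribosome holds their proteins in near equal numbers. Levels here are scaled FPKM, which are per length. Over the 16 libraries, Rpl4, a large-subunit protein near the exit tunnel, averaged 208, Rps23, a small-subunit protein of the decoding center, 175, and Rpl10, which joins the large subunit late, 164. At the other end of the protein-coding core, Rpl26 averaged 2.165, Rpl30 1.22 and Rpl34 1.01. The Spearman correlation of log2 level with the percent of shared windows was 0.05 across 80 genes, and the part of reads divided among copies in these levels was not tested. The median over the 81 tested genes was 33.7 in striatum IP and 37.2 in hippocampus IP, against 50.3 in striatum input and 61.4 in hippocampus input. The 3 that did not pass the filter of at least 1 FPKM in at least 4 libraries were paralogs: Rpl10l was listed at 0 in all 16 libraries, Rpl39l in all but 1, and Rpl3l did not exceed 0.41. Rpl10l and Rpl39l are known from the testis, and Rpl3l from muscle.

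Rpl22, the tagged gene, was among the lowest, 77th of 84 in mean level. It lies on chromosome 4 at 152325742-152334071 (mm10, plus strand). Its level was 3.08, 3.39, 3.25 and 3.69 scaled FPKM in hippocampus IP of animals 970, 971, 974 and 977, against 3.93, 3.96, 4.04 and 3.99 in hippocampus input. Each IP library lay below each input library. The fold change was log2 -0.20 ± 0.11 (SE), with a limma adjusted p = 0.114 (Benjamini-Hochberg) and a 95% interval of -0.42 to 0.03. It passed the threshold, at adjusted p = 0.038, when the 2 striatum inputs that stand apart were left out of the shared fit. In striatum the level was 2.79, 3.27, 3.25 and 3.13 in IP, against 3.35, 2.37, 3.18 and 3.55 in input, and these overlapped (log2 0.01 ± 0.11, adjusted p = 0.968, limma). Rpl22 mRNA was not called enriched in the precipitate of its own tagged protein, while the all-gene medians of IP over input were -0.14 in hippocampus and -0.01 in striatum. Reads of the tagged and untagged allele are counted as 1 gene in these tables. Between regions, striatum input was lower than hippocampus input (log2 -0.29 ± 0.11, adjusted p = 0.0451), and this call was lost without any 1 animal, without the 2 striatum inputs (log2 -0.16) and with the animal as a block (adjusted p = 0.0505).

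Rpl22l1, the paralog that can take the place of Rpl22 in the ribosome, behaved otherwise. Its level was 15.3, 17.1, 19.0 and 19.0 scaled FPKM in hippocampus IP, against 50.6, 54.8, 54.5 and 50.4 in hippocampus input. In striatum it was 15.6, 17.1, 19.2 and 19.2 in IP, against 56.8, 71.1, 86.4 and 44.3 in input. The IP levels of each animal were nearly the same in both regions, and no IP library reached any input library. The fall was log2 -1.53 ± 0.16 in hippocampus (adjusted p = 2.8e-07, limma) and -1.77 ± 0.16 in striatum (adjusted p = 6.21e-08), and -1.45 in striatum without the 2 inputs. Among the 80 other tested genes, those whose log2 levels followed Rpl22 most closely over the 16 libraries were Rpl35 (r = 0.88), Rps13 (0.84), Rpl21 (0.82), Rps16 (0.81) and Rpl10a (0.80), against a median of 0.53. For Rpl22l1 they were Rpl27a (0.98), Rps20 (0.97), Rpl39 (0.96), Rpl4 (0.96) and Rpl36a (0.95), and its lowest value was with Rpl7l1 (-0.89). These are descriptions over libraries that share depth and group. Of the 50-base windows of the coding sequence of Rpl22l1, 84.2% also occurred in other genes, against 31.0% for Rpl22. The part of reads divided among copies in this contrast was not tested.

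In hippocampus, most ribosomal protein genes were lower in IP than in input. Of the 81 tested, 53 fell (65.4%), against 37% of all 13449 genes called lower, and 2 rose, against 28.9% of all genes called higher. The median log2 fold change was -0.62, against -0.14 over all genes, and it lay between -0.71 and -0.53 within single animals. Both subunits took part: 24 of 30 small-subunit genes and 27 of 43 large-subunit genes fell. Without scaling between libraries, 68 fell and none rose, with a median of -1.11 against -0.51 over all genes. The members then lay 0.60 below all genes (a difference of -0.60), compared with -0.48 on the scaled values. Other genes with coding sequences under 500 bases were called lower in 38.9% of 981 cases, with a median of -0.21.

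Among the small-subunit genes, Rps12, a protein of the beak of the subunit, had 17.8, 18.7, 21.7 and 24.4 scaled FPKM in hippocampus IP, against 76.1, 65.1, 68.8 and 60.6 in hippocampus input (log2 -1.67 ± 0.14, adjusted p = 2.01e-08, limma). Every IP value was less than the lowest input by a wide margin. Rps15a had 8.13, 7.90, 8.83 and 9.94 in IP, against 28.5, 29.5, 29.6 and 29.1 in input (log2 -1.64 ± 0.11, adjusted p = 1.32e-09). Rps28, at the mRNA exit site, averaged 18.4 in IP and 53.2 in input (log2 -1.48 ± 0.13). Rps6, the substrate of the S6 kinases and a common marker of mTOR activity when phosphorylated, fell less, with 25.5, 27.7, 27.0 and 29.1 in IP against 42.1, 38.8, 38.4 and 43.1 in input (log2 -0.56 ± 0.10, adjusted p = 0.000145). Rps27a, which is made as a fusion with ubiquitin, fell too (log2 -0.85 ± 0.12). Rpsa, which also has a form at the cell surface known as the laminin receptor, and Rps4x, encoded on the X chromosome, did not pass the test, with log2 values of -0.42 ± 0.26 and -0.33 ± 0.16. In both, no IP library reached an input library. Rpsa had 37.1 to 46.2 in IP against 50.7 to 57.4 in input, and Rps4x 86.7 to 109 against 111 to 139. The pooled spread in these tests includes the striatum inputs. Rps9 was higher in IP in all 4 animals, at 86.3, 81.2, 83.2 and 92.6 against 68.8, 60.6, 67.6 and 80.6 in input, and did not pass the test with all libraries.

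Among the large-subunit genes, Rpl17, next to the exit tunnel, averaged 46.1 in hippocampus IP and 152 in hippocampus input (log2 -1.71 ± 0.22, adjusted p = 4.21e-06, limma). Rpl10 had 95.76, 98.27, 101.7 and 110.3 in IP, against 267.6, 276.5, 264.9 and 304.7 in input, with no overlap (log2 -1.45 ± 0.34, adjusted p = 0.00153). In striatum Rpl10 had 99.14, 98.77, 104.6 and 110.6 in IP, against 249.7, 98.56, 59.74 and 289.2 in input, where the 2 inputs that stand apart lay at or below the IP values. The 2 that rose were Rpl7 and its paralog Rpl7l1. Rpl7 had 80.3, 72.4, 71.0 and 80.3 in IP, against 62.7, 57.2, 66.3 and 59.2 in input, and the groups did not overlap (log2 0.31 ± 0.10, adjusted p = 0.0102). Rpl7l1 had 4.89, 5.56, 4.98 and 6.58 in IP, against 2.92, 2.52, 3.85 and 3.03 in input, again without overlap (log2 0.67 ± 0.13, adjusted p = 0.000264). Unscaled, the value of Rpl7 was log2 -0.195, which lay 0.32 above the all-gene median, against 0.45 above it on scaled values. The rise of Rpl7 was called without animal 974 but not without 970, 971 or 977. With the 2 striatum inputs left out of the shared fit, whose spread then narrowed, 63 genes fell and 5 rose in hippocampus. The share of all genes called in that fit is not given. The 5 were Rpl7, Rpl7l1, Rpl18 (limma adjusted p = 0.000208), Rps9 (0.0195) and Rpl8 (0.0479).

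**Figure D3:**
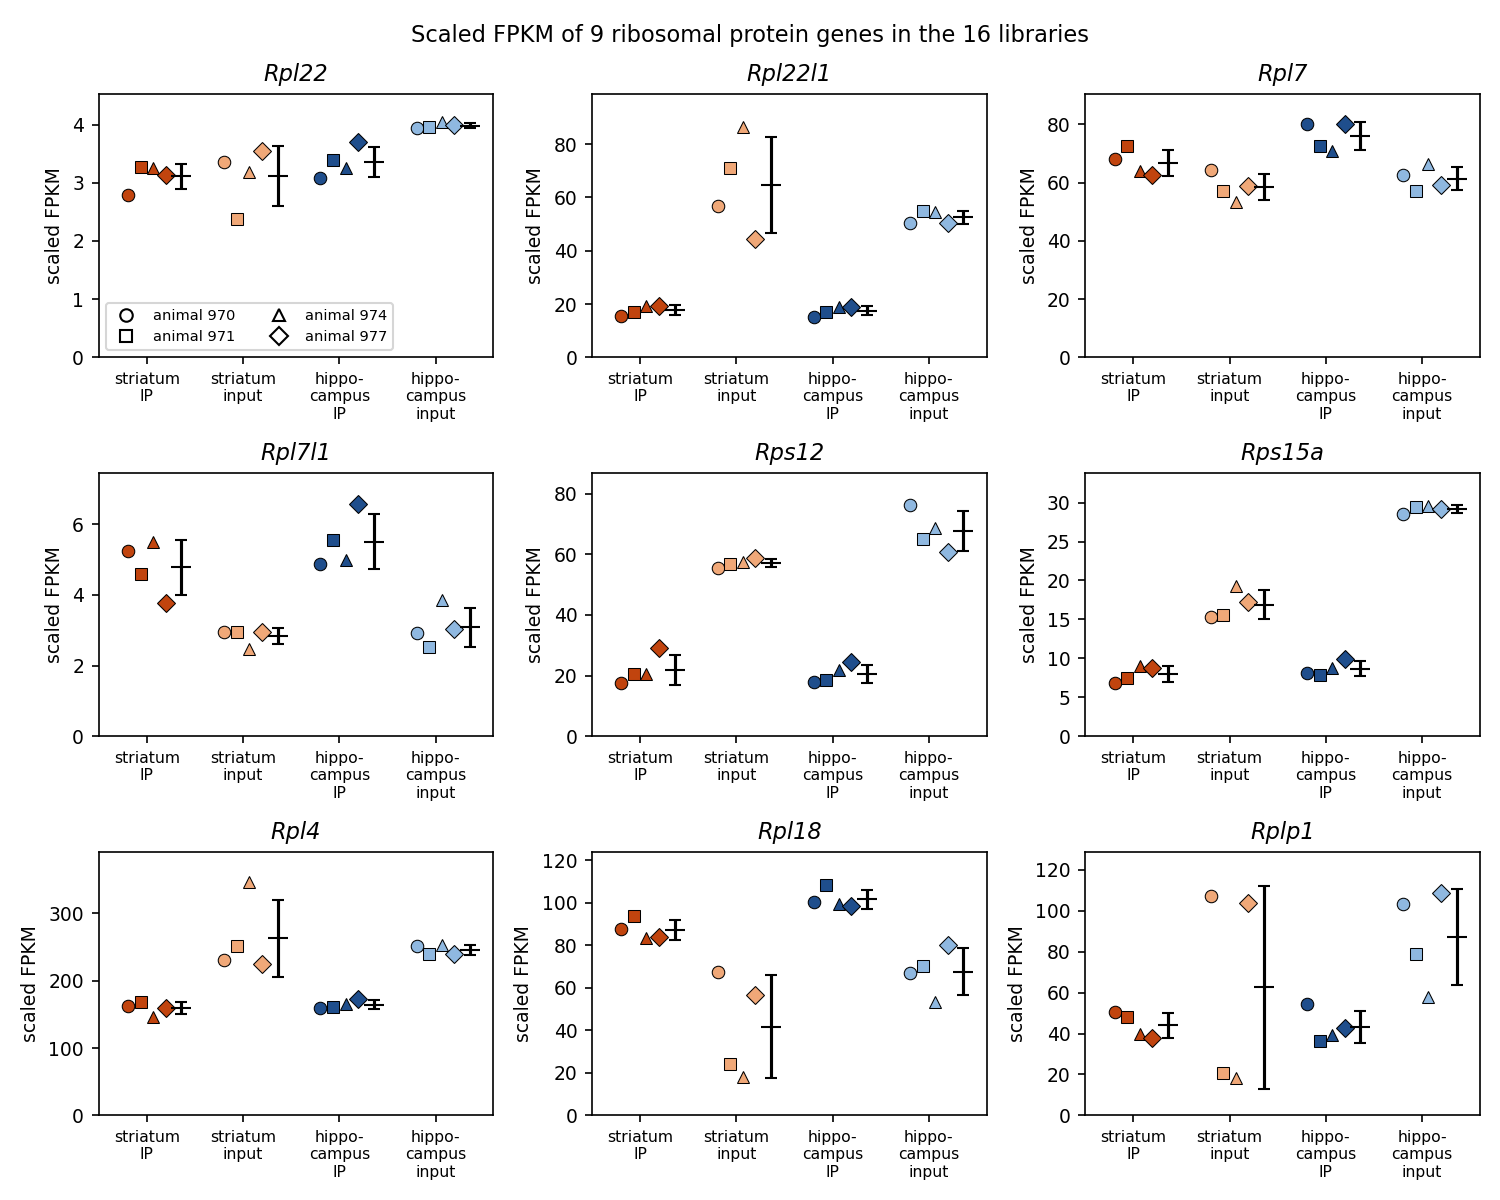
Scaled FPKM of 9 ribosomal protein genes in the 16 libraries, 1 panel a gene, with groups on the x axis, symbols for animals and bars for mean and SD over 4 animals. Rpl22l1, Rps12 and Rps15a lie lower in IP than in input in both regions, Rpl7l1 lies higher, Rpl22 changes little, and Rpl18 and Rplp1 split the striatum inputs into a low pair (971 and 974) and a high pair.

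In striatum, 37 of 81 genes fell in IP against input (45.7%), against 32.1% of all genes called lower, and 9 rose (11.1%), against 33% of all genes called higher. The median log2 fold change was -0.36, against -0.01 over all genes. It differed between animals: -0.65 in 970 and -0.63 in 977, against -0.02 in 971 and 0.04 in 974. Without the striatum inputs of 971 and 974, 58 fell and 4 rose, with a median of -0.60, against -0.025 over all genes. The share of all genes called in that fit is not given. Of the 37 that fell, 36 also fell in hippocampus, which is 97.3% of the striatum list and 67.9% of the hippocampus list. Across the 81 genes the log2 fold changes in the regions had a Pearson correlation of 0.84, and 0.92 without the 2 inputs. The same overlap and correlation over all genes are not given, so neither is shown to be particular to these genes.

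With all libraries, the largest called falls in striatum were of Rpl22l1, Rpl39 and Rps12. Without the 2 inputs the order changed, with Rpl17 at -1.78 (-1.31 with all libraries), Rps25 at -1.59 and Rpl22l1 at -1.45. Rpl39, a small protein inside the exit tunnel, had 19.95, 33.8, 29.9 and 29.6 scaled FPKM in striatum IP, against 67.8, 79.9, 134 and 55.6 in striatum input (log2 -1.49 ± 0.21, adjusted p = 1.26e-05, limma), and log2 -1.11 without the 2 inputs. Rps12 had 17.5, 20.6, 20.4 and 29.1 in IP, against 55.4, 56.9, 57.4 and 58.8 in input (log2 -1.37 ± 0.14, adjusted p = 2.66e-07), and log2 -1.36 without the 2 inputs. Its striatum inputs stayed within a narrow band in all animals, those that stand apart included. Rps29, Rpl36a and Rps20 followed, with log2 values of -1.33 ± 0.15, -1.33 ± 0.14 and -1.31 ± 0.12, and of -1.28, -1.099 and -1.22 without the 2 inputs. Rps6 had -0.19 ± 0.10 and did not pass the test with all libraries, but fell without the 2 inputs (-0.33, adjusted p = 0.00821).

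The 9 that rose in striatum were Rpl18, Rpl28, Rpl8, Rpl7a, Rps9, Rps4l, Rpl27, Rpl7l1 and Rplp0. Rpl18 had 87.7, 93.5, 83.3 and 83.8 scaled FPKM in striatum IP, against 67.5, 24.0, 18.1 and 56.5 in striatum input (log2 1.25 ± 0.30, adjusted p = 0.00161, limma). The 2 inputs that stand apart were lowest, and without them the value was 0.49 (adjusted p = 0.00593). Rpl28 had 54.2, 64.5, 51.5 and 66.8 in IP, against 42.8, 17.9, 11.2 and 60.3 in input (log2 1.095 ± 0.35, adjusted p = 0.0116), and this call was lost without the 2 inputs (0.21, adjusted p = 0.253). Rpl8, near the peptidyl transferase center, and Rpl7a held their calls without them, at 0.31 and 0.34, against 0.99 and 0.81 with them. Rpl7l1 moved least, 0.58 with and 0.54 without them, and had 5.26, 4.61, 5.49 and 3.76 in IP, against 2.96, 2.96, 2.48 and 2.96 in input. Rpl27, Rps4l and Rplp0 lost their calls without the 2 inputs, with 0.20, 0.26 and 0.21, as did Rps9. Rps4l also lost its call with the animal as a block (adjusted p = 0.0517). Without all libraries of animal 971, Rpl18 (1.025) and Rpl7l1 (0.61) were the 2 genes called higher. Sorted by GC content, the 27 genes with the highest GC (54.6 to 61.6%) had a median of 0.08 with all libraries and -0.49 without the 2 inputs, while the 27 with the lowest GC (39.9 to 50.6%) had -0.62 and -0.60.

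**Figure D4:**
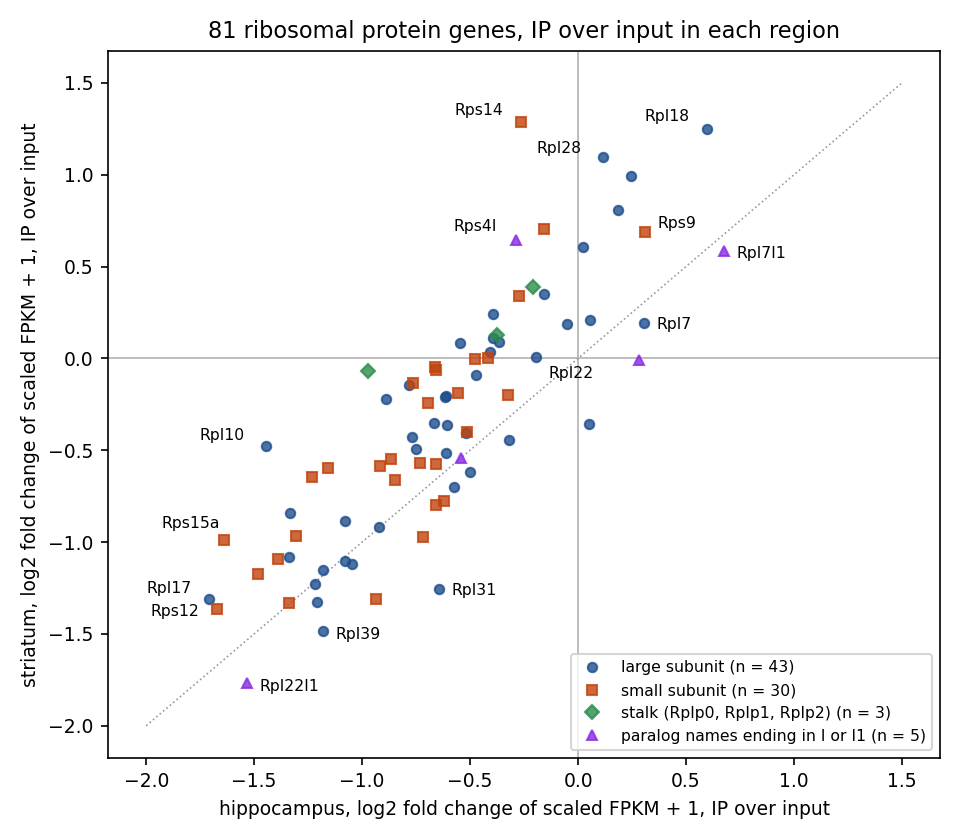
Log2 fold change of scaled FPKM + 1, IP over input, in hippocampus (x axis) and striatum (y axis) for the 81 tested genes, by class, with a dotted line where both are equal. Most points lie below 0 on both axes, and Rpl22 sits near 0 in striatum and at -0.20 in hippocampus. Rps14, listed at 0 in striatum input 974, was not called.

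The stalk proteins Rplp0, Rplp1 and Rplp2, which recruit the translation factors to the large subunit, also depended on the striatum inputs. Rplp1 had 50.5, 47.9, 39.8 and 37.8 scaled FPKM in striatum IP, against 107, 20.7, 18.5 and 104 in striatum input. The IP values lay between the low and the high pair of inputs. Its log2 fold change was -0.07 ± 0.46 with all libraries (adjusted p = 0.909, limma) and -1.26 without the 2 inputs (adjusted p = 0.000191). Rplp2 likewise had 0.13 ± 0.23 with all libraries and -0.43 without them (adjusted p = 0.0117). In hippocampus, Rplp1 had 54.3, 36.5, 39.4 and 42.6 in IP, against 103, 78.8, 58.0 and 109 in input, with no overlap. None of the 3 passed the test there with all libraries. Rplp1 passed with the animal as a block (adjusted p = 0.0368), and Rplp1 (-0.97, adjusted p = 0.000217) and Rplp2 (-0.38, adjusted p = 0.00588) passed when the 2 striatum inputs were left out of the shared fit. Rpsa in striatum had 0.00 ± 0.26 with all libraries and -0.60 without the 2 inputs (adjusted p = 0.000136).

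The paralogs with names in l or l1 did not move together. Of the 5 tested, Rpl22l1 and Rpl36al fell in both regions and Rpl7l1 rose in both. Rpl36al, a paralog of Rpl36a, had log2 -0.54 ± 0.14 in striatum (adjusted p = 0.00333, limma; -0.52 without the 2 inputs) and -0.54 ± 0.14 in hippocampus (adjusted p = 0.00312). Its parent Rpl36a fell further, with -1.33 ± 0.14 in striatum and -1.21 ± 0.14 in hippocampus. Rps27l, known as a p53 target, had -0.01 ± 0.20 in striatum and 0.28 ± 0.20 in hippocampus and did not pass the test, while Rps27 fell in both regions (-0.78 ± 0.16 in striatum, -1.13 without the 2 inputs, and -0.62 ± 0.16 in hippocampus). Rps4l, which GENCODE lists as a transcribed processed pseudogene, had 0.65 ± 0.27 in striatum with all libraries.

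Between the regions, the IP levels of these genes were close. No member was called in striatum IP against hippocampus IP (limma, 0 of 81), against 5.18% of all genes called lower and 7.32% called higher. A single gene, Rpl36al, was under 0.05 before adjustment (log2 -0.31, adjusted p = 0.191, limma). The log2 differences ran from -0.40 for Rps27l to 0.28 for Rps4l, with a median of -0.08, against 0.00 over all genes, and 68 of 81 were below 0. The median was negative in 3 animals, at -0.14 in 970, -0.11 in 974 and -0.10 in 977, and 0.00 in 971. Unscaled, the median was 0.05, against 0.11 over all genes. For Rpl22 the difference was -0.08, with an interval of -0.31 to 0.14, and for Rpl22l1 0.02, with an interval of -0.32 to 0.35, so differences of that size are not shown to be absent. The 2 striatum inputs enter this comparison only through the shared spread, and without them Rps25 was called (-0.27, adjusted p = 0.042). Without animal 971, Rps27l was called (-0.64). The summed level of the oligodendrocyte markers was 33.0 to 67.6 in striatum IP, against 13.2 to 25.9 in hippocampus IP, and its part in these values was not tested.

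The inputs differed more. In striatum input against hippocampus input, 30 of 81 genes were lower (37.0%), against 22.3% of all genes called lower, and 1 was higher (1.23%), against 14.7% called higher. The median was -0.43, against -0.08 over all genes. It was -0.52 in 971 and -0.65 in 974, against -0.14 in 970 and -0.13 in 977. Without the striatum inputs of 971 and 974 the median was -0.11, against -0.051 over all genes. In that fit 5 genes were lower, namely Rps15a, Rplp0, Rpl41, Rps27a and Rps28, with Rps27 higher. Leaving out all libraries of animal 971 left 5 genes lower, and leaving out 974 left 9. Rpl31, the gene called higher with all libraries, had 48.6, 49.9, 75.3 and 40.8 scaled FPKM in striatum input, against 34.9, 29.1, 36.8 and 34.4 in hippocampus input (log2 0.62 ± 0.17, adjusted p = 0.0113, limma), and was not called without the 2 inputs (0.39, adjusted p = 0.103).

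Rps15a held the clearest difference between the regions. Its level in input was 15.3, 15.6, 19.3 and 17.2 scaled FPKM in striatum, against 28.5, 29.5, 29.6 and 29.1 in hippocampus, and no striatum value came near a hippocampus value (log2 -0.76 ± 0.11, adjusted p = 3.98e-05, limma). In IP it was 6.804, 7.499, 8.98 and 8.77 in striatum, against 8.13, 7.90, 8.83 and 9.94 in hippocampus, with overlap (log2 -0.11 ± 0.11). The fall in IP against input was thus smaller in striatum, and the test of that difference gave 0.65 ± 0.15 (adjusted p = 0.00834), positive in all 4 animals. Among the 81 genes it was the 1 called higher in this test (1.23%), against 9.04% of all genes called higher, and none was called lower, against 5.3%; 10 were under 0.05 before adjustment. It was 0.70 without the 2 striatum inputs, and it missed the threshold without animal 970 (adjusted p = 0.0578) or 971 (0.116). With the animal as a block, Rplp0 was also called (0.60, adjusted p = 0.0197). The median over the 81 was 0.32 with all libraries, against 0.11 over all genes. Without the 2 inputs it was 0.04, against 0.087 over all genes, so that it lay -0.052 from all genes. Of the windows of the coding sequence of Rps15a, 84.2% occurred in 9 other genes. The annotated transcript chosen to represent it, of 5179 bases with a coding sequence of 390, is the longest in the set. Whether that transcript is the form present in brain was not tested.

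Fold changes followed the length of the coding sequence more than the level. In hippocampus the Spearman correlation of log2 IP over input with log2 coding length was 0.41 across 80 genes, with GC content 0.20 and with mean level 0.00 across 81. In striatum the values were 0.45, 0.44 and -0.01, and without the 2 inputs 0.42, 0.15 and -0.09. Points in these correlations share libraries and base composition. When the dependence of each library on transcript length, fitted on other genes, was taken out, 44 genes fell and 8 rose in hippocampus, with a median of -0.42 against -0.03 over all genes.

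Other genes of translation were set beside the ribosomal proteins from fixed lists. The shares of all genes called were 32.1% lower and 33% higher in striatum, and 37% lower and 28.9% higher in hippocampus. Of 6 tested names left out by the rule, all but Rps3a1 were pseudogene names, and 4 fell in striatum and 5 in hippocampus. Rps3a1 was among those that fell (-0.997 in striatum, -0.955 without the 2 inputs, and -1.12 in hippocampus). Genes of these lists were named after their values were seen. Elongation factors and other TOP mRNAs were mixed. In hippocampus 9 of 19 fell and 3 rose, with a median of -0.32. The host RNA Gas5 (-1.33), Eef1b2 (-0.99), Pabpc1 (-0.75) and Tpt1 (-0.68) fell, and Eef2 (0.65), Eef1d (0.65) and the astrocyte filament gene Vim (3.398) rose. In striatum 8 of 19 fell and 5 rose, and 8 fell and 4 rose without the 2 inputs, with Eef2 at 1.18 and 0.69 without them. The mitochondrial ribosomal proteins, which translate mitochondrial mRNAs, lay elsewhere. In hippocampus 7 of 51 fell and 9 rose, with a median of -0.03, and in striatum 7 fell and 21 rose, with a median of 0.36. Genes with names in Eif1 to Eif6, called initiation factors here, rose more often than they fell. The counts were 22 against 8 of 49 in striatum and 19 against 10 in hippocampus, with medians of 0.27 in striatum and 0.15 in hippocampus. This list by name also holds the kinases Eif2ak1 to Eif2ak4 and Eif4enif1, and Eif3e, Eif3f, Eif3h, Eif3k, Eif4a2 and Eif4b are in the TOP list too. Eif3i (1.33 in striatum and 0.93 in hippocampus) and Eif4g1 (1.195 in striatum and 0.68 in hippocampus) rose in both, and Eif4e3 (-1.35 in striatum and -2.31 in hippocampus) and Eif1a (-1.95 in striatum and -2.11 in hippocampus) fell in both. Of 26 ribosome assembly genes, 9 were higher and 4 lower in striatum (median 0.23), and 4 were called in each direction in hippocampus (median 0.07). Without the 2 inputs, 5 were higher and 2 lower in striatum. Of 9 S6 kinases, 6 fell and 1 rose in striatum, and 4 fell and 1 rose in hippocampus. Without the 2 inputs, 6 fell and none rose in striatum. Subunits of the proteasome, the complex that degrades proteins, had 21 of 38 higher and 3 lower in striatum (median 0.44) and 12 higher and 5 lower in hippocampus (median 0.24). Without the 2 striatum inputs the striatum medians were 0.22 for mitochondrial ribosomal proteins, 0.22 for initiation factors and 0.18 for the proteasome, against -0.60 for the cytosolic ribosomal proteins.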

How the data were processed

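The 16 tables hold 1 value per gene, which the authors deposited and which was read here as FPKM; the labels do not name the unit. In them, 97.4% of 1598 low genes had values on whole-fragment steps (within 0.02), from which depth was estimated. Base calling used bcl2fastq 2.17, alignment STAR to mm10 and counting HTSeq, per the submitters' processing notes. The kit (NuGen Ovation RNA-Seq System V2, paired-end, per the labels' protocols) does not mark strand, so overlapping antisense genes share reads.

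Of 24060 labels, 27 turned into dates were dropped. FPKM were divided by trimmed-mean factors (0.771 to 1.27; trims of 30% and 5%). Values of log2(scaled FPKM + 1) then entered limma 3.58.1 under R 4.3.3 (trend, robust; 4 groups; 12 residual degrees of freedom). The filter of 1 FPKM or more in 4 or more libraries kept 13449 genes. A fold change on this scale understates changes of low genes. Calls are Benjamini-Hochberg adjusted p under 0.05 over all genes. The procedure was tested on simulated counts, with changes only in hippocampus IP and no effect of animal or GC content. That test does not cover the striatum inputs that stand apart. Coordinates and sequences of coding regions are from GENCODE vM21, where all 84 genes were found.

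Same-numbered libraries come from the same animal, per the labels. Their deviations from group means correlated by 0.302 to 0.524 between IPs, 0.054 to 0.318 between inputs, 0.086 to 0.171 between hippocampus IP and input and -0.009 to 0.085 between striatum IP and input. The animal was a block in an alternative only. The genes and lists were chosen with earlier results of these data known. Named members are Rpl22, its paralog, the stalk, Rpsa, Rps6, Rps27a, Rps4x, all names in l or l1, the extremes of level, up to 6 of the largest called changes per direction (every animal on the same side of 0, a mean of 5 or more in either group), and rare calls against the majority; Rpl10l, Rpl39l and Rpl3l were not tested. Rps9, Rps14, Rps25, Rps27 and Rpl41 were named after their values were seen. Drawing used Python 3.11.15, pandas 2.3.3 and matplotlib 3.10.9.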

Additional observations from a re-analysis of the deposited data

Results flagged for a closer look

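Of 124 sets of 4 libraries examined for a single library far from the rest (Dixon's test at the 95% level), 6 were met, and chance gives about 1 in 20. Rpl39 in hippocampus IP of animal 974 had 36.3 scaled FPKM, above the others. Rps27l in hippocampus IP of 970 had 20.2, also above, and in hippocampus input of 971 it had 14.4, above the other inputs. Rps4l in striatum IP of 974 had 5.598, above the others. In striatum input of 974, the shallowest library, Rps27a was high at 29.4 and Rpl7l1 low at 2.48.

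The fall of Rps15a in IP against input differed between the regions by a test of that difference (log2 0.65 in striatum minus hippocampus, limma). Its cause was not tested.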

How the results depend on the processing

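For 78 results of single genes under 16 alternatives (68 of them at the minimum of 5 FPKM), 1238 values were recomputed. Of these, 1132 kept their side of the threshold, 72 lost and 31 gained a call, and 3 were counted as reversed in sign. One was Rpl7 in hippocampus without scaling (-0.195, where the median of all genes was -0.513). The others were Rplp2 (-0.428) and Rpsa (-0.602) in striatum without striatum inputs 971 and 974. Genes called in neither fit could change sign outside these 3. Rps27l in striatum did so (-0.01 with all libraries, 0.01 without the 2 inputs). Apart from the values below, the cause of these changes was not tested.

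In hippocampus IP over input, the count of genes higher was 0 without scaling, 1 at a minimum of 5 FPKM, 1 without paralogs, 8 with length correction, 9 with length correction and block, 4 with GC correction and block, 5 without the 2 striatum inputs and 1 to 2 with an animal left out. The median was -1.11 without scaling, -0.517 with median-of-ratios scaling and -0.417 with length correction, with or without the block. The medians of all genes were then -0.513, -0.049 and -0.028. In striatum IP over input, the count higher was 1 without scaling, 4 without the 2 inputs and 2 to 11 with an animal left out, and the count lower was 58 without the 2 inputs.

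Between IPs, the median was 0.05 without scaling, where that of all genes was 0.106, so that it lay -0.057 from all genes, against -0.086 on scaled values. It was -0.159 with median-of-ratios scaling and -0.145 with length correction, with or without the block. The medians of all genes were then -0.061 and -0.044, so that it lay -0.098 and -0.101 from all genes. The count lower was 1 with length correction and block, 1 without the 2 inputs and 0 to 1 with an animal left out. Between inputs, the count lower was 18 without scaling, 18 with median-of-ratios scaling, 13 with length correction, 19 with length correction and block, 12 with GC correction, 18 with GC correction and block, 5 without the 2 inputs and 5 to 33 with an animal left out. The count higher was 2 with length correction, with or without the block, 2 with GC correction and block, and 0 to 1 with an animal left out. The median was -0.113 without the 2 inputs, where that of all genes was -0.051. For the difference between regions, the count lower was 1 with median-of-ratios scaling, with length or GC correction, each with or without the block, and without the 2 inputs. The count higher was 2 with the block and 0 to 1 with an animal left out.

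Rpl22 in hippocampus passed the test without scaling (-0.591, where the median of all genes was -0.513) and without the 2 inputs (-0.196). Between inputs it missed it without scaling (-0.325), with median-of-ratios scaling (-0.229), a pseudocount of 0.1 (-0.36), the block (-0.285), length correction with or without the block (-0.152), without the 2 inputs (-0.163) and with any animal left out (-0.334 to -0.196).

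With the animal as a block, 55 genes were lower and 2 higher in hippocampus, 40 and 9 in striatum, and 33 and 1 between inputs. Of the named genes, the block changed the calls of Rpl22 between inputs, Rplp1, Rps4l and Rplp0 given above, and no other. The GC corrections were chosen after seeing the data. Depth limits the striatum inputs most, at 4.15 M to 8.98 M fragments.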
